A study of Rattus norvegicus with 12 samples.

Results

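The metabotropic glutamate receptor genes *Grm2*, *Grm3*, *Grm4*, *Grm5*, *Grm7* and *Grm8* were followed in RNA sequencing of the rat striatum. They were taken by symbol from a table of raw read counts, and all 6 were present among its 17337 genes. The data came from 12 male wild-type Sprague–Dawley rats, each giving 1 library, after 16 days of methamphetamine (MA) self-administration. There were 4 rats at 12 h of abstinence (MA12: rats 21, 31, 4N and 7N), 4 at 24 h (MA24: rats 9N, 14N, 15N and 16N) and 4 that the labels call non-addicted (rats 9, 11, 12 and 13). What defined a non-addicted rat, and how long after the last session it was killed, is not given in the sources used here, and neither is the meaning of the N that ends all 4 MA24 numbers, 2 of the MA12 numbers and none of the non-addicted numbers. The kind of rat number and the group therefore cannot be told apart between the non-addicted and MA24 rats. The length of abstinence and the hour of the day at which the tissue was taken cannot be told apart between MA12 and MA24 if sessions ran at a fixed hour. Rats labelled as the S or M group of the study were not analysed here.

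Metabotropic glutamate receptors (mGlu) are G-protein-coupled receptors that sense glutamate and tune the strength of synapses over a slower time course than the ion-channel receptors. Group I (mGlu5 here) couples to Gq and phospholipase C and sits mostly on the postsynaptic side, where mGlu5 is abundant in the projection neurons of the striatum. Group II (mGlu2 and mGlu3) and group III (mGlu4, mGlu7 and mGlu8 here) couple to Gi/o and lower the release of transmitter from axon terminals. The mRNA of a presynaptic receptor lies in the cell body, so that transcripts for receptors on cortical or thalamic terminals in the striatum are mostly made outside it. In bulk tissue, fewer cells of a type and less RNA per cell cannot be told apart.

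Counted reads per library ranged from 17908962 to 23850284, with overlapping ranges in the 3 groups, and the labels give all 12 the same batch, without saying what it covers. The tissue label was checked with marker genes. The 11 markers of striatal projection neurons (*Drd1*, *Drd2*, *Ppp1r1b* and others) summed to between 14061 and 18561 CPM per rat (counts scaled to the size of the library), whereas 7 markers of cortical projection neurons summed to between 14.8 and 27.6 CPM. Summed astrocyte markers lay between 3149 and 3908 CPM, with overlapping ranges in the 3 groups. Summed oligodendrocyte markers lay between 12147 and 21700 CPM in MA12, 18107 and 21237 CPM in MA24, and 11667 and 17284 CPM in the non-addicted rats, so that every MA24 rat was above every non-addicted rat. The endothelial and mural markers were also higher in every MA24 rat (507 to 583 CPM) than in every non-addicted rat (341 to 468 CPM).

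*Grm5* and *Grm3* were lower in MA24 than in MA12. These were the 2 of 6 receptor genes past the test in that comparison, both in the same direction, and no receptor gene passed it in the other direction. The test was edgeR's quasi-likelihood test on the counts of the 8 rats, with Benjamini-Hochberg adjustment over the 10754 genes tested and a threshold of 0.05. Of all genes tested, 3.32% were lower and 1.84% higher in MA24 by this rule. *Grm5* was also a differentially expressed gene (DEG), which required in addition a fold change (FC) of at least 1.5, as 2.45% of all genes were. Without adjustment, 4 of the 6 receptor genes had a p below 0.05, all of them lower in MA24, as 23.6% of all genes had in either direction and 13.1% in that of lower levels. Neither of the comparisons with the non-addicted rats gave a receptor gene past the same test.

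*Grm5*, which encodes the Gq-coupled receptor of the spines of projection neurons, was counted between 1369 and 4088 times per library. Its level, in log2 CPM with a prior count of 2, was 7.43, 7.36, 7.29 and 7.19 in MA12 rats 21, 31, 4N and 7N. In MA24 it was 6.99, 6.08, 6.78 and 6.81 in rats 9N, 14N, 15N and 16N. All 4 MA24 rats were below all 4 MA12 rats, and rat 14N was the lowest of the 12. The non-addicted rats 9, 11, 12 and 13 were at 6.67, 7.09, 7.16 and 7.04, so that each was below the MA12 rats, and their range overlapped that of MA24.

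The group means of *Grm5* were 7.32 ± 0.10 in MA12, 6.67 ± 0.40 in MA24 and 6.99 ± 0.22 log2 CPM in the non-addicted rats (SD, n = 4 each). From MA12 to MA24, *Grm5* fell by 34.7%, a log2FC of -0.62 (edgeR quasi-likelihood, SE 0.14, adjusted p = 0.0187). An exact permutation test of the mean log2 CPM gave p = 0.0286, the smallest value that the 70 splits of 4 rats against 4 allow. The difference did not rest on rat 14N alone, since without it the log2FC was -0.46 (adjusted p = 0.0235), which is an FC under 1.5. Among rats with an N in their number (2 MA12 and 4 MA24), the log2FC was -0.53 and no longer past the test (edgeR quasi-likelihood, adjusted p = 0.0937). With a term for that kind of number in the fit it was -0.54 (adjusted p = 0.133). Against MA12, the non-addicted rats had a log2FC of -0.33 (SE 0.11) that missed the threshold (adjusted p = 0.207). Against MA24, they had a log2FC of 0.29 (SE 0.15, adjusted p = 0.321).

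**Figure D1:**
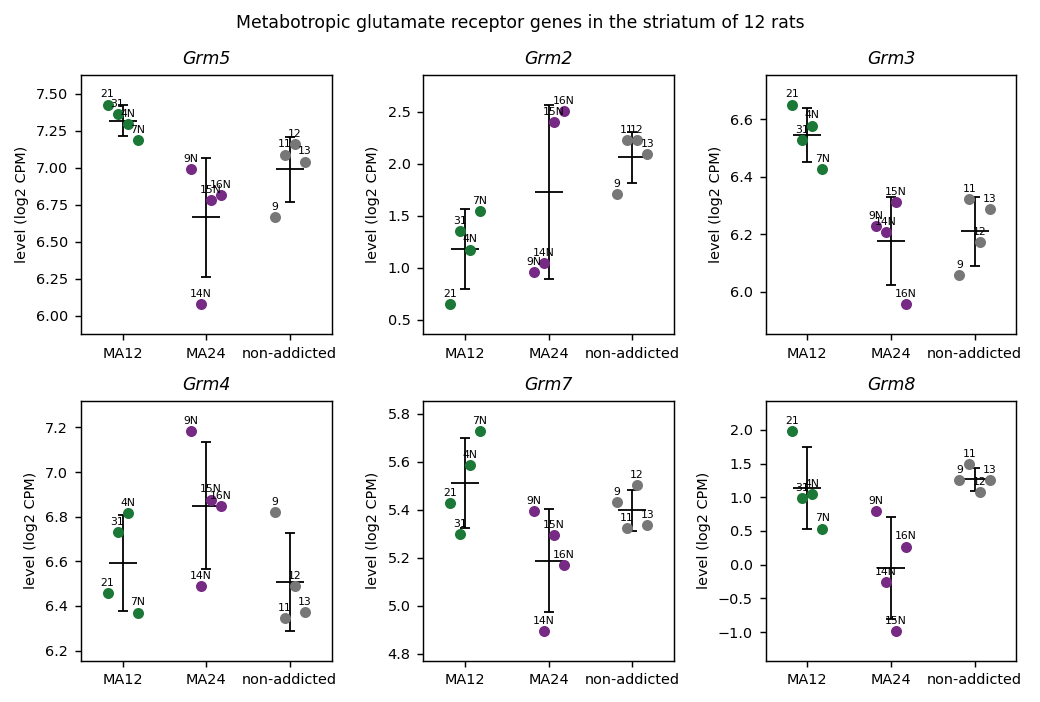
Level of each receptor gene (log2 CPM, vertical axis, scaled per panel) in the 12 rats by group, with each point labelled by its rat number, and the mean and SD of 4 rats as a black bar with whiskers. For *Grm5* and *Grm3* the MA24 points lie below all MA12 points, and for *Grm2* the MA24 rats 15N and 16N lie apart from 9N and 14N.

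*Grm3* encodes the group II receptor found in astrocytes as well as neurons. It was at 6.65, 6.53, 6.58 and 6.43 log2 CPM in MA12 rats 21, 31, 4N and 7N. In MA24 rats 9N, 14N, 15N and 16N it was at 6.23, 6.21, 6.31 and 5.96 log2 CPM. In the non-addicted rats 9, 11, 12 and 13 it was at 6.06, 6.32, 6.17 and 6.29 log2 CPM. The 4 MA12 rats thus lay above all 8 others, and the other groups overlapped almost completely.

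From MA12 to MA24 *Grm3* fell by 22.4%, a log2FC of -0.37 (SE 0.10, edgeR quasi-likelihood adjusted p = 0.0422). The exact permutation test gave p = 0.0286. This call was near its threshold and depended on several rats: it was lost without MA12 rat 21 (adjusted p = 0.141), 31 (0.0760) or 4N (0.0720), and without MA24 rat 14N (0.0707), 15N (0.0548) or 16N (0.118). The log2FC in these 6 fits lay between -0.41 and -0.30. The call was also lost among rats with an N in their number (log2FC -0.31, adjusted p = 0.274) and with a term for the kind of number (log2FC -0.33, adjusted p = 0.217). Against MA12, the non-addicted rats had a log2FC of -0.34 (SE 0.10), with an adjusted p of 0.137 in the quasi-likelihood test and of 0.0447 in DESeq2. Against MA24 they stood at a log2FC of 0.03 (SE 0.10, edgeR adjusted p = 0.908). Of 7 astrocyte markers, 0 passed edgeR's or DESeq2's test between MA24 and MA12 (1 before adjustment in edgeR), with a median log2FC of 0.06.

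*Grm2* encodes the group II autoreceptor of glutamatergic terminals, and its counts were low, between 35 and 112 per library. In MA12 rats 21, 31, 4N and 7N it was at 0.65, 1.36, 1.17 and 1.55 log2 CPM. In the non-addicted rats 9, 11, 12 and 13 it was at 1.71, 2.23, 2.23 and 2.09 log2 CPM, each above all MA12 rats. The MA24 rats split: 9N and 14N were at 0.96 and 1.05 log2 CPM, among the MA12 rats, while 15N and 16N were at 2.40 and 2.51 log2 CPM, above all others.

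The non-addicted rats exceeded MA12 in *Grm2* by a log2FC of 0.89 (SE 0.27), with p = 0.00402 before and 0.162 after adjustment (edgeR quasi-likelihood), and the exact permutation p was 0.0286. Across the 19 alternative settings this log2FC ranged from 0.73 to 1.08 with adjusted p between 0.0643 and 0.353, so that the direction held and the threshold was never passed. MA24 had a log2FC of 0.71 over MA12 (SE 0.36, adjusted p = 0.245), and the non-addicted rats had 0.18 over MA24 (SE 0.33, adjusted p = 0.797). The MA24 rats that were high in *Grm2* were also the highest of the 12 in *Slc17a7*, the vesicular glutamate transporter of cortical neurons, with 136 counts in 15N and 181 in 16N, against 86 in 9N and 52 in 14N. Of the cortical marker list, 0 of the 4 genes tested passed edgeR's test between MA24 and MA12 (2 before adjustment), DESeq2 called *Slc17a7* higher, 3 of the 7 in the table had a mean count under 4, and none was at 0 in every library. The part of cortical RNA in the *Grm2* values was not tested.

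Among the group III genes, *Grm4*, whose product is known for acting on the terminals of projection neurons and corticostriatal axons, was at 6.46, 6.73, 6.81 and 6.37 log2 CPM in MA12 rats 21, 31, 4N and 7N. It was at 7.18, 6.49, 6.88 and 6.85 log2 CPM in MA24 rats 9N, 14N, 15N and 16N, and at 6.82, 6.35, 6.49 and 6.37 log2 CPM in non-addicted rats 9, 11, 12 and 13. The MA24 mean of 6.85 ± 0.28 was the highest of the 3 groups, with ranges that overlapped in each pair. It had a log2FC of 0.27 over MA12 (SE 0.13, adjusted p = 0.227), and the non-addicted rats had -0.36 relative to MA24 (SE 0.14, adjusted p = 0.201, edgeR quasi-likelihood). The non-addicted and MA12 rats differed by a log2FC of -0.09 (SE 0.13, adjusted p = 0.830).

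*Grm7*, which encodes a receptor of the active zone with a low affinity for glutamate, varied least in the non-addicted rats, at 5.43, 5.32, 5.50 and 5.34 log2 CPM in 9, 11, 12 and 13. It was at 5.43, 5.30, 5.59 and 5.73 log2 CPM in MA12 rats 21, 31, 4N and 7N, and at 5.39, 4.89, 5.29 and 5.17 log2 CPM in MA24 rats 9N, 14N, 15N and 16N. Of the MA24 rats, 9N lay within the range of MA12. The log2FC of MA24 over MA12 was -0.32 (SE 0.12, edgeR adjusted p = 0.124), with an exact permutation p of 0.0571. The non-addicted rats had a log2FC of -0.12 relative to MA12 (SE 0.11, adjusted p = 0.692) and of 0.20 relative to MA24 (SE 0.12, adjusted p = 0.372).

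*Grm8*, the gene of a group III autoreceptor with a high affinity for glutamate, had the fewest counts, between 8 and 92 per library, and so the largest counting error. Its counts were 92, 45, 42 and 24 in MA12 rats 21, 31, 4N and 7N. They were 38, 15, 8 and 21 in MA24 rats 9N, 14N, 15N and 16N, and 44, 55, 49 and 44 in non-addicted rats 9, 11, 12 and 13. In log2 CPM the means were 1.14 ± 0.61 in MA12, -0.05 ± 0.76 in MA24 and 1.27 ± 0.17 in the non-addicted rats (SD, n = 4 each). The MA24 rats lay below all non-addicted rats, and overlapped MA12 through rat 9N. The log2FC was -1.21 for MA24 over MA12 (SE 0.44, edgeR adjusted p = 0.106), with an exact permutation p of 0.0571. Without MA24 rat 9N it was -1.59 and passed the test (adjusted p = 0.0474). It was -0.82 without MA12 rat 21 (adjusted p = 0.379), -0.75 among rats with an N in their number (adjusted p = 0.557) and -0.77 with a term for that kind of number (edgeR adjusted p = 0.489). The non-addicted rats had a log2FC of 1.23 over MA24 (SE 0.40), with p = 0.0056 before and 0.137 after adjustment, and the exact permutation p was 0.0286. The summed oligodendrocyte and vascular markers separated the same groups in the other direction, and their part in the *Grm8* values was not tested. Relative to MA12 the non-addicted rats had a log2FC of 0.02 (SE 0.33, adjusted p = 0.987).

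Set against all genes, the counts of receptor genes whose groups did not overlap were 2 of 6 for MA24 and MA12 (*Grm3* and *Grm5*), where 15.5% of all genes did not overlap. They were 3 of 6 for the non-addicted and MA12 rats (*Grm2*, *Grm3* and *Grm5*), against 7.11% of all genes, and 1 of 6 for the non-addicted and MA24 rats (*Grm8*), against 9.996%. Past the edgeR quasi-likelihood test in the comparison of non-addicted with MA12 rats were 0 of 6 receptor genes, against 0.270% of the 10758 genes tested. Without adjustment 3 had a p below 0.05, against 12.3% of all genes. DESeq2 called 1 (*Grm3*), against 1.61% of all genes, and edgeR's likelihood ratio test called 0, against 1.52%. In the comparison of non-addicted with MA24 rats, 0 of 6 passed, against 0.549% of 10744 genes. Without adjustment 2 had a p below 0.05, against 17.5% of all genes. DESeq2 and the likelihood ratio test called 0, against 2.35% and 2.52% of all genes. Each group serves in 2 of the 3 comparisons, so these counts are not independent of each other.

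**Figure D2:**
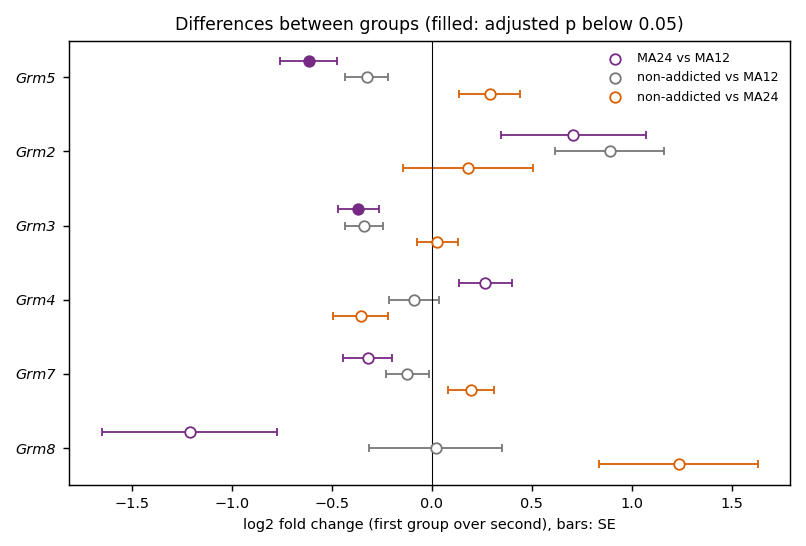
Log2 fold change (horizontal axis, first group over second, bars ± SE) of the 6 receptor genes in the 3 comparisons, from edgeR's quasi-likelihood fits of 8 rats each. The filled points, *Grm5* at -0.62 and *Grm3* at -0.37 in MA24 vs MA12, have an adjusted p below 0.05, and the *Grm8* and *Grm2* bars are the widest.

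Several genes that carry the mGlu5 signal into the cell were lower in MA24 as well. Of 9 genes for Gq and phospholipase C coupling, 5 fell from MA12 to MA24, and none rose, where 3.32% of all genes were lower and 1.84% higher in MA24. The median log2FC of the list was -0.32, against -0.02 over all genes tested. *Prkca* (protein kinase C alpha) fell by 0.78 (adjusted p = 0.0144) and *Gnaq* (the Gq alpha subunit) by 0.60 on the log2 scale (adjusted p = 0.0351, edgeR quasi-likelihood). The phospholipase C genes *Plcb1* and *Plcb4* fell by 0.40 each (adjusted p = 0.0372 and 0.0466), and *Prkcb* by 0.32 (adjusted p = 0.0472). The rest of the list did not pass, among them *Gna11* (log2FC -0.20), the IP3 receptor gene *Itpr1* (-0.22) and the endocannabinoid enzyme gene *Dagla* (-0.19). The count depended on the rats used. It was 1 without MA12 rat 21, 31 or 4N or MA24 rat 14N or 15N, 2 without MA24 rat 16N, and 3 without MA12 rat 7N or MA24 rat 9N. It was 0 among rats with an N in their number and with a term for the kind of number.

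In each of the other lists 1 or 2 genes passed, all of them lower in MA24, as 3.32% of all genes were. Among the scaffolds and binding partners of mGlu receptors, 1 of 11 tested fell. It was *Homer1*, a gene of scaffold proteins that bind mGlu5 (by 0.38, edgeR quasi-likelihood adjusted p = 0.0350). Reads were counted per gene, so its transcript forms cannot be told apart. The *Homer1* level was 7.20 ± 0.18 in MA12, 6.83 ± 0.05 in MA24 and 7.11 ± 0.04 log2 CPM in the non-addicted rats (SD, n = 4 each). Among genes of Gi/o and adenylyl cyclase coupling, 1 of 11 fell, *Gnai1* (by 0.38, adjusted p = 0.0451). Among receptor desensitization and RGS genes 2 of 11 fell, the receptor kinase gene *Grk5* (by 0.65, adjusted p = 0.0166) and the arrestin gene *Arrb1* (by 0.59, adjusted p = 0.0453, edgeR quasi-likelihood). The medians of these 3 lists were -0.01, -0.07 and -0.12.

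For the supply and clearance of glutamate and of NAAG, a peptide that acts on mGlu3, 2 of 16 genes fell. They were *Slc1a2*, the astrocytic glutamate transporter (by 0.70, adjusted p = 0.0328), and the glutamine transporter gene *Slc38a1* (by 0.50, adjusted p = 0.0131, edgeR quasi-likelihood). The median of this list was -0.02, equal to that of all genes. *Folh1*, which encodes the enzyme that splits NAAG, had a log2FC of -0.09 (adjusted p = 0.699). No gene of these 5 lists rose by edgeR's test. DESeq2 called *Rgs9* and *Slc17a7* higher and, beyond edgeR's calls, *Slc38a2* lower in MA24, and did not call *Slc1a2*. Before adjustment, 20 of the 58 genes tested had an edgeR p below 0.05 in either direction, where 23.6% of all genes did so. Comparing the non-addicted rats with MA12, 0 of the 57 genes of the 5 lists passed edgeR's test (14 before adjustment, where 12.3% of all genes did so) and 0 passed that of DESeq2. Comparing them with MA24, 0 of 56 passed in edgeR (11 before adjustment, where 17.5% of all genes did so), and DESeq2 called *Gnai1* and *Homer1* higher and *Gls2* lower in the non-addicted rats.

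The fold changes between MA24 and MA12 also varied with the length of the gene. Genes were ranked by genomic length (exons and introns) in the RefSeq annotation of GRCr8, which gave a length for 98.5% of the genes tested, and split into 10 bins of equal size. The median log2FC went down in each step from 0.14 in the bin of the shortest to -0.24 in that of the longest. In bin 10, the longest, 13.2% of genes were lower in MA24 by edgeR's test, against 0.567% in bin 1. *Grm3*, *Grm5*, *Grm7* and *Grm8* belonged to bin 10, *Grm4* to bin 9 and *Grm2* to bin 4.

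Within their own bin, 14.7% of genes had a lower log2FC than *Grm5*, 33.4% than *Grm3*, 39.3% than *Grm7* and 2.55% than *Grm8*. *Grm4* and *Grm2* stood at the other end, with 93.1% and 97.0% of the genes in their bins below them. When the trend with length was entered into the fit as an offset, an alternative added after the data had been seen, the log2FC of *Grm5* was -0.35 (adjusted p = 0.119) and that of *Grm3* was -0.11 (adjusted p = 0.576, edgeR quasi-likelihood). The number of receptor genes past the test was then 0, as was that of the Gq and phospholipase C genes. For *Grm4* the log2FC was then 0.41 (adjusted p = 0.0863). In the comparison of non-addicted with MA12 rats the median went from 0.00 in bin 1 to -0.09 in bin 10, and in that of non-addicted with MA24 rats from -0.14 to 0.16.

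**Figure D3:**
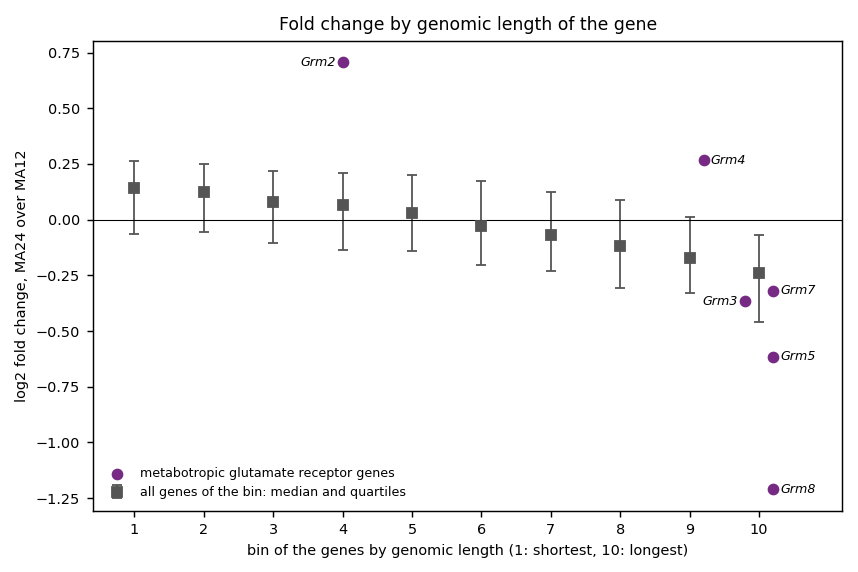
Median log2 fold change from MA12 to MA24 (vertical axis, squares, whiskers from the lower to the upper quartile) in 10 bins of the genes by genomic length (horizontal axis), with the receptor genes as purple points. The medians go from 0.14 to -0.24; *Grm3* and *Grm7* lie inside the quartiles of bin 10, *Grm5* and *Grm8* below them, and *Grm2* and *Grm4* above those of their bins.

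*Grm5* followed the main axis of variation among the 12 rats. The first principal component of 10765 genes with a mean count of at least 50 held 26.8% of the variance, with MA12 rats at 2.93 to 19.1, MA24 rats at -27.5 (14N) to -5.32 and non-addicted rats at -6.66 to 10.3. Over the 12 rats its Pearson r was 0.92 with *Grm5*, 0.73 with *Grm8*, 0.71 with *Grm3* and 0.63 with *Grm7*. It was -0.29 with *Grm4* and -0.20 with *Grm2*. These are descriptions, since the genes are themselves part of the same libraries. At an r above 0.9, *Grm5* had 244 of 10764 other genes beside it, *Grm7* had 8, *Grm3* had 3, *Grm4* and *Grm8* had 1 each, and *Grm2* had none.

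The genes most alike to *Grm5* over the 12 rats were *Kcna2*, *Klhl11* and *Wdr7* (r = 0.99 each). Those for *Grm3* were *Pls3* (0.93), *Picalm* (0.92) and *Dus4l* (0.91), and those for *Grm7* were *Rnf19b*, *Tsn* and *Itch* (0.93 each). For *Grm8* they were *Bicd1* (0.91), *Zfyve9* and *Dapk1* (0.87 each). For *Grm4* they were *Mrpl43* (0.91), *Stoml1* (0.90) and *Coprs* (0.83), and for *Grm2* *Ass1* (0.88), *Lhx8* (0.85) and *Ubap2* (0.83). The likeness includes the differences between groups and gives no more than the similarity of 12 values.

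Between rats of the same group the receptor genes could not be shown to vary together. After each value was centred on its group mean, none of the 15 pairs of receptor genes passed the Benjamini-Hochberg correction (smallest adjusted permutation p = 0.762 for Pearson's r and 0.725 for Spearman's rho, 12 rats, 100000 permutations). The largest r was -0.55 between *Grm2* and *Grm8* (rho -0.41, permutation p = 0.0604 for r before correction), and it was again -0.55 without the 2 rats farthest from the median of *Grm2*. *Grm5* and *Grm7* had an r of 0.46 (permutation p = 0.128 before correction), which was 0.07 without the 2 rats farthest from the median of *Grm5*.

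Sequence upstream of the annotated start was at hand for 3 of the 6 genes, from RefSeq on GRCr8. The 250 bases before the start are shown for *Grm5*, the DEG, and for *Grm7*, a gene of the same length class that did not pass the test, 5′ to 3′ on the strand of the gene, with letters that match a searched motif in capitals. The *Grm5* window is chr1:150733503-150733752 on the + strand, and its start is not the outermost annotated one, so that other transcripts begin further upstream. The *Grm7* window is chr4:145286476-145286725 on the + strand, before the outermost start.
Grm5: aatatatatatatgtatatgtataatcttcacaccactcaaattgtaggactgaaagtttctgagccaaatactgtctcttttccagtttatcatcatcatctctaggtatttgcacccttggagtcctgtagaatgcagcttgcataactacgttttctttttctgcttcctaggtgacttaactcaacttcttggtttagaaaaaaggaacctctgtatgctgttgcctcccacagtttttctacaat
Grm7: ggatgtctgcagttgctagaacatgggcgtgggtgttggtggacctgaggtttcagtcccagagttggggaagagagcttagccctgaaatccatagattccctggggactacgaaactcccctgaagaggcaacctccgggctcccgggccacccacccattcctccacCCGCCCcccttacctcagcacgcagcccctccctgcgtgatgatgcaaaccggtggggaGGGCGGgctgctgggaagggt

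The *Grm5* window held 36.4% G and C with 1 CG pair, and the *Grm7* window 62.0% with 9 CG pairs. The window of *Grm8*, also not before the outermost start, held 47.2% and 5 CG pairs, and the median over 33469 rat promoter windows of this length was 51.2%. Both strands were searched for the CRE (TGACGTCA, in 1.59% of all windows), the AP-1 site (TGANTCA, 6.34%), the E-box (CACGTG, 5.59%) and the GC box (GGGCGG, 30.5%). The *Grm7* window held 2 GC boxes, 1 on each strand, and the other windows held none of the 4 motifs. Absence of these letters says nothing about binding of a factor elsewhere.

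**Figure D4:**
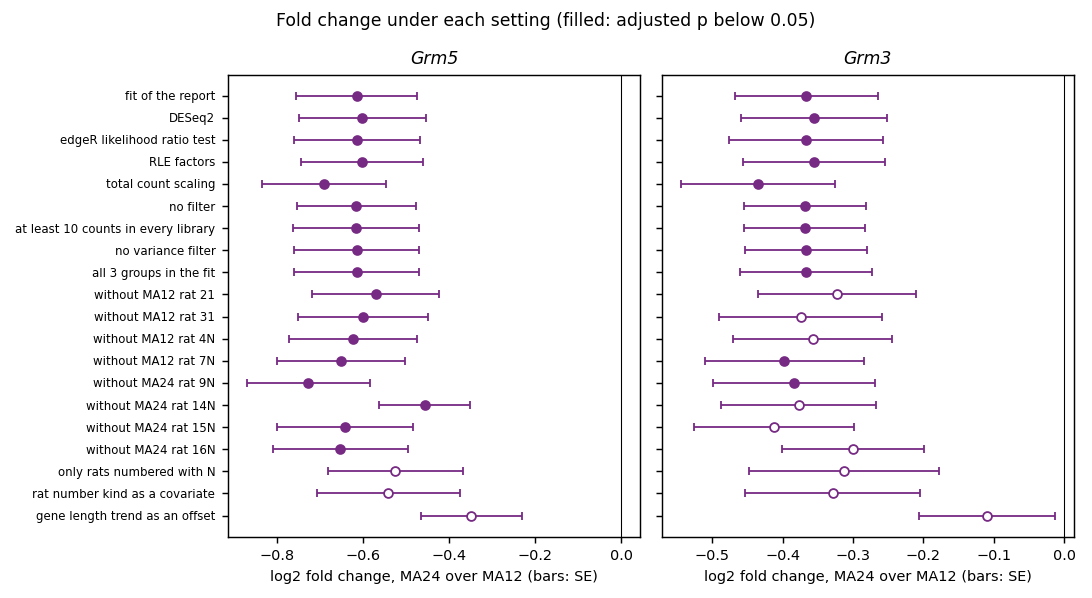
Log2 fold change from MA12 to MA24 (horizontal axis, bars ± SE) of *Grm5* and *Grm3* in the fit of the report and under 19 other settings (vertical axis), filled where the adjusted p is below 0.05. Every point lies below 0; *Grm5* is open in 3 settings and *Grm3* in 9.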

How the data were processed

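Striatal poly-A RNA of 12 rats was sequenced in paired ends. The authors used Cutadapt 1.18 for trimming and STAR 2.7.0e for alignment to rn6, then counted reads per gene (featureCounts is named, and HTSeq 0.12.4 among the tools in the submitters' notes). They deposited raw counts, without normalization. How strands and multi-mapped reads were counted is not given in the sources used here. The library kit does not mark strand, so reads of overlapping and antisense genes cannot be told apart. All 12 columns were used.

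Genes entered a comparison if they averaged over 4 counts in its 8 libraries and were not among the 15% least variable in log2 CPM, a reading of the study's filters. All 6 receptor genes passed in each comparison. Groups were compared after TMM scaling with edgeR 4.0.16 (glmQLFit, glmQLFTest; R 4.3.3). The DEG threshold was an adjusted p of 0.05 together with an FC of 1.5. The prior count of log2 CPM was 2, and exact permutation tests are two-sided. The fits were tried on simulated counts in which 200 genes had a 2-fold change. For MA24 vs MA12, the quasi-likelihood test with the DEG threshold recovered 157 of the 200, with 10 false calls. Smaller changes, a trend with gene length and an effect of the kind of rat number were not simulated. Replicates are separate rats, so the tests set group differences against the spread between rats. These differences include any that go with the kind of rat number, except in the fits by that kind. Other tools were DESeq2 1.42.0 and, in Python 3.11.15, scipy 1.17.1, pandas 2.3.3 and numpy 2.4.6.

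Named are the 6 genes, list genes past the test (at most 5 per list) and, per receptor gene, the 3 genes most alike among those with a mean count of at least 50. *Slc17a7*, *Folh1*, genes called by DESeq2 alone and Gq genes that did not pass were added after their values were seen. The receptor genes and lists were chosen with earlier results of these data known. Alternatives were other tests, scalings and filters, 1 fit of the 3 groups, fits that leave out a rat, and fits by the kind of rat number. The offset for gene length was chosen after seeing the data.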

Additional observations from a re-analysis of the deposited data

How the results depend on the processing

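Of 326 fold changes of the 6 receptor genes computed under alternatives, 299 kept their direction and their side of the threshold, 12 lost the call, 2 gained it and 13 changed sign. The cause of the lost and gained calls and of the changes of sign was not tested. The receptor genes past the test in MA24 vs MA12 numbered 2, and 1 to 3 with a rat left out, 0 with N-numbered rats alone, 0 with a covariate for that kind of number and 0 with the length offset. In non-addicted vs MA12 there were 0, and 1 by DESeq2.

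DEGs in MA24 vs MA12 numbered 264 (79 higher, 185 lower), 129 (without MA24 rat 14N) to 436 (without MA24 rat 9N) with a rat left out, 151 without MA12 rat 21, 116 (68 higher, 48 lower) with N-numbered rats alone, 47 (25 higher, 22 lower) with the covariate and 122 (57 higher, 65 lower) with the length offset. Scaling by total counts gave 44 higher and 277 lower, and moved the median log2FC of all genes from -0.02 to -0.08. In non-addicted vs MA12 the 27 DEGs (11 higher, 16 lower) became 75 by DESeq2, 87 by the likelihood ratio test, 13 (3 higher, 10 lower) with total counts, 12 unfiltered, 5 with no variance filter, 4 where each library needed 10 counts, 63 with rats numbered without N, 10 with the covariate and 8 (without non-addicted rat 12) to 93 (without MA12 rat 7N) with a rat left out. In non-addicted vs MA24 the 49 (35 higher, 14 lower) became 126 by DESeq2, 163 by the likelihood ratio test, 10 unfiltered, 0 where each library needed 10 counts (2146 at an unadjusted edgeR p below 0.05), 0 with no variance filter (2229), 0 with all 3 groups in the fit (2066) and 0 (without non-addicted rat 12; 1211 before adjustment) to 187 (without non-addicted rat 13) with a rat left out. Total counts gave 61 higher and 9 lower there.

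The sign changes were in differences near 0 that never passed the test. For non-addicted vs MA12, the log2FC with a rat left out ranged from -0.20 to 0.0036 for *Grm4* and from -0.13 to 0.41 for *Grm8*. With the covariate it was 0.0358 for *Grm7* and -0.31 for *Grm8*, which was at -0.29 with rats numbered without N. For non-addicted vs MA24, it ranged with a rat left out from -0.0415 to 0.46 for *Grm2* and from -0.0084 to 0.0748 for *Grm3*, which was at -0.14 with the length offset. Depth limits *Grm8* and *Grm2* most. No paired analysis was possible because the groups share no rat numbers.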

Other observations

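Among the cell type markers, few genes passed edgeR's quasi-likelihood test. *Pdyn*, the dynorphin precursor gene of the direct-pathway projection neurons, fell by 0.57 on the log2 scale from MA12 to MA24 (adjusted p = 0.0084) and was lower in the non-addicted rats than in MA12 (log2FC -0.65, adjusted p = 0.0281). Its level was 8.82 ± 0.15 in MA12, 8.25 ± 0.17 in MA24 and 8.16 ± 0.23 log2 CPM in the non-addicted rats (SD, n = 4 each). *Drd1*, the D1 receptor gene of the same neurons, had a log2FC of -0.13 from MA12 to MA24 (adjusted p = 0.428).

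Some markers of vessels, myelin and ependyma passed the test in the comparisons with the non-addicted rats. Against MA12, the mural cell genes *Acta2* (log2FC -0.81, adjusted p = 0.0436) and *Pdgfrb* (-0.56, adjusted p = 0.0446) were lower in the non-addicted rats by edgeR's quasi-likelihood test. None of the 6 oligodendrocyte or 5 ependymal and choroid plexus markers tested passed there in edgeR (1 and 3 before adjustment) or DESeq2. Against MA24, the endothelial gene *Cldn5* (log2FC -0.68, adjusted p = 0.0241) and the myelin gene *Mbp* (-0.53, adjusted p = 0.0443) were lower, and *Foxj1*, a regulator of motile cilia in ependymal cells, was higher (1.08, adjusted p = 0.0354, edgeR quasi-likelihood).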
